A study of Mus musculus with 28 samples.

Results

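Matrix metalloproteases (MMP), ADAM and ADAMTS metalloproteases and the tissue inhibitors of metalloproteases (TIMP) were followed in mIMCD-3, a line of mouse inner medullary collecting duct cells. A gene was a member when its symbol was Mmp, Adam, Adamts or Timp followed by a digit. This gave 79 of the 45706 genes in the expression tables, namely 23 MMP, 33 ADAM, 19 ADAMTS and 4 TIMP genes. The line was derived from a mouse carrying the SV40 early region, which all 7 groups therefore share, and no group was treated. The groups were the polyclonal wild-type cells (polyclonal WT), the clone WT5, grown from a single sorted wild-type cell and kept because it was ciliated, and 5 subclones grown from single sorted cells of WT5. Each group had 4 RNA-seq libraries from cells collected after confluency. Each clone is 1 isolate, so the 4 libraries of a group measure the spread within that isolate, and the study calls them biological replicates in its methods and technical replicates in a figure legend. Polyclonal WT was sequenced with single reads of 50 bases and WT5 with paired reads of 150 bases at another time, so the batch and the line cannot be told apart in that comparison.

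MMPs are secreted or membrane-bound zinc proteases that cut collagens, laminins, fibronectin and proteoglycans of the extracellular matrix. ADAMs are membrane proteins, several of which release the outer part of growth factors and receptors from the cell surface, while ADAMTS enzymes are secreted and cut matrix proteoglycans and procollagens. TIMPs bind the active site of these enzymes and block it, and in the kidney their balance with the proteases bears on tubule growth and on basement membrane turnover.

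Levels are given as TPM, transcript abundance scaled by transcript length and to the same total in every library, which keeps no record of sequencing depth, so the depth behind a value is unknown. The tables hold 2 decimals and the lowest value above 0 was 0.01 TPM. Between 16270 and 19272 genes were above 0 in a library, and libraries of 1 group correlated across genes with r from 0.983 to 0.990. All 6 tubule epithelium markers were at 1 TPM or more in every group, with summed levels of 1673 to 1958 TPM in polyclonal WT libraries and of 3059 to 3152 TPM in those of WT5. Of the 6 collecting duct markers 4 were at 1 TPM or more in polyclonal WT and 2 in each other group, with summed levels of 149 to 240 TPM over all libraries, and Aqp2, the vasopressin-regulated water channel that defines principal cells, was listed at 0 in every group. The 7 fibroblast markers summed to at most 2.14 TPM and the 4 endothelial markers to at most 0.29 TPM in any library. The 5 leukocyte markers summed to 12.6 to 14.3 TPM in polyclonal WT libraries and to 38.7 to 44.9 TPM in WT5 libraries, which came mostly from the growth factor receptor gene Csf1r (10.6 ± 0.570 and 38.8 ± 3.03 TPM, SD, n = 4), while the leukocyte gene Ptprc averaged at most 0.138 TPM in a group and Adgre1 was listed at 0. In every group 2 of the 5 were at 1 TPM or more, Csf1r and the lysosomal protein gene Cd68, with group means of 1.83 to 3.73 TPM for Cd68.

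Of the 79 members, 26 were listed at 0 in all 28 libraries, 37 were above 0 in some library but stayed under 1 TPM in every group mean, and 16 reached a group mean of 1 TPM. The 16 were 2 MMP, 7 ADAM, 4 ADAMTS and 3 TIMP genes. The collagenases and gelatinases, the enzymes that open fibrillar and basement membrane collagen, were at trace levels. The highest group mean among the 4 collagenase genes was 0.205 TPM, for Mmp13 in subclone 4, and Mmp2, gelatinase A, reached 0.965 ± 0.126 TPM in polyclonal WT. Mmp14, the membrane-type MMP that activates pro-MMP2, was listed at 0 in 27 libraries and at 0.02 TPM in the other. Of the 21 ADAM genes outside the lists of broadly expressed members, most of them testis genes, 14 were listed at 0 throughout.

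**Figure D1:**
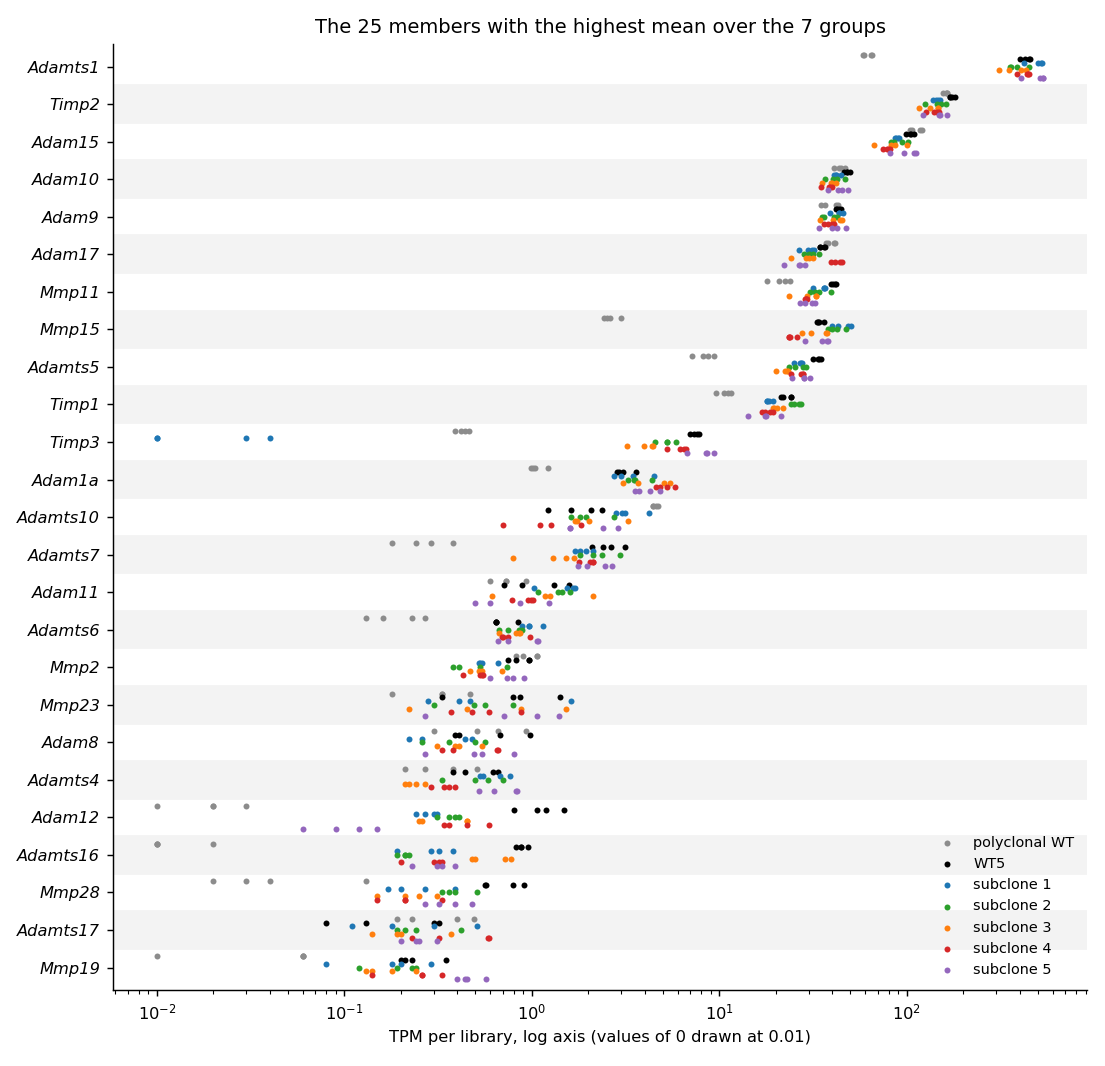
TPM in each of the 28 libraries for the 25 members with the highest mean of the 7 group means, on a log axis with values of 0 drawn at 0.01. Points are single libraries coloured by group. Adamts1 is the top row by that mean (58.2 to 65.5 TPM in polyclonal WT, 311 to 534 TPM elsewhere), and the 4 subclone 1 points of Timp3 lie at the left edge.

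Adamts1, a secreted protease that cuts aggrecan and versican, had the highest mean of the 7 group means, and Timp2, which blocks MMPs and also takes part in the activation of pro-MMP2, was second. In polyclonal WT alone Adamts1 (61.8 TPM) stood below Timp2 (162 TPM) and Adam15 (112 TPM). Adamts1 made up 81.4% ± 0.453 (SD, n = 4) of the summed ADAMTS level in polyclonal WT and 91.5% ± 0.228 in WT5. Timp2 made up 93.5% ± 0.443 of the summed TIMP level in polyclonal WT and 85.2% ± 0.588 in WT5. Among ADAMs the leading genes were Adam15, Adam10, Adam9 and Adam17, and among MMPs they were Mmp11, stromelysin-3, and Mmp15, a membrane-type MMP. Adam1a, with group means of 1.07 to 5.13 TPM, shares all of its 50-base stretches with other genes, mainly Gm42878 and Mapkapk5, and is uncertain for that reason. Timp4 was listed at 0 in all 28 libraries.

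The comparison of WT5 with polyclonal WT asks how a clonal line differs from the mixed culture it came from. By the call rule given next, Timp3, Mmp15, Mmp28, Adam12 and Adamts16 were higher in WT5 and no tested member was called lower. A call needed an adjusted p under 0.01 (limma on log2 TPM z-scored within each library, Benjamini-Hochberg over all genes) and a z-score difference above 1, where 1 stands for the SD across genes within a library. Of the 27 members above 0 in all 8 libraries, 5 were called, where 5.43% of the 13723 genes tested were called, 2.31% as higher and 3.12% as lower. Members with a value of 0 in any of the 8 could not be tested. Of these, Mmp16 read 0.19, 0.11, 0.05 and 0.09 TPM in polyclonal WT and 0 in WT5. Mmp13, Mmp19 and Adamts14, also untested and at low levels, were higher in every WT5 library than in any polyclonal WT library. By a log2 difference above 1 in place of the z-score threshold, 11 members were higher and 1 was lower, against 16.4% and 8.85% of all genes. The median log2 difference was 0.67 over the 27 members and 0.24 over all genes tested. It was 1.93 over the 8 ADAMTS genes, 1.11 over the 6 MMP genes and 0.14 over the 10 ADAM genes.

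**Figure D2:**
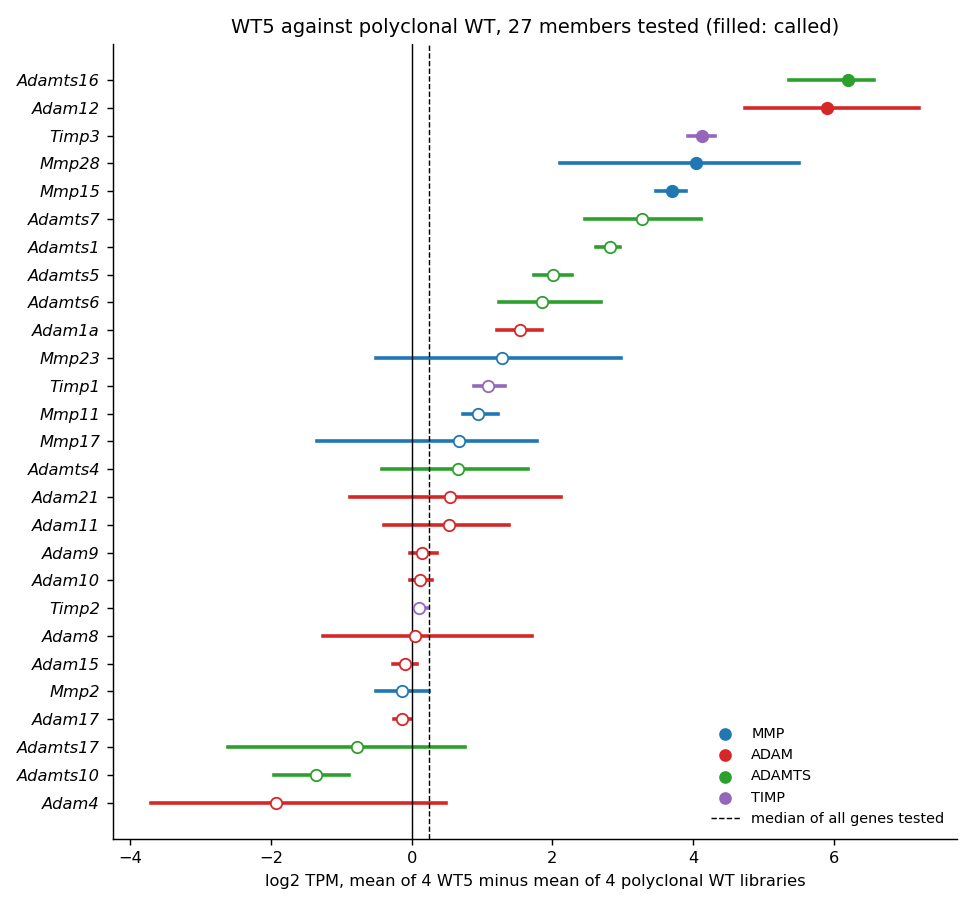
Difference in log2 TPM between the means of the 4 WT5 and the 4 polyclonal WT libraries for the 27 members tested, coloured by family. Lines run from the smallest to the largest difference between a WT5 and a polyclonal WT library, filled points were called, and the dashed line is the median of all genes tested (0.24). The 5 filled points lie at the top, from 3.70 for Mmp15 to 6.20 for Adamts16. The positions of Adamts16 and Adam12 are uncertain, as their polyclonal WT libraries read 0.01 to 0.03 TPM.

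Timp3 encodes the inhibitor that stays bound to the matrix and blocks ADAM17 and ADAMTS proteases as well as MMPs. It read 0.42, 0.39, 0.44 and 0.46 TPM in the polyclonal WT libraries and 7.61, 7.37, 7.75 and 6.98 TPM in the WT5 libraries. The groups lay far apart with no overlap, a 17.4-fold difference (z-score difference 1.25, SE 0.0171, limma adjusted p = 2.71e-09). Timp3 lies on the plus strand of chr10:86300372-86349506 (GRCm38, GENCODE M21 annotation), within the Syn3 gene on the minus strand, and exons of both overlap. Because the strand setting of the counting is not given in the sources used here, reads from overlapping exons could be assigned to either gene. Syn3, which encodes a synapsin, averaged 0.0775 ± 0.0685 TPM in the polyclonal WT libraries and 1.91 ± 0.387 TPM in WT5, so it was higher in WT5 together with Timp3.

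Mmp15 encodes a membrane-type MMP that cuts matrix proteins at the cell surface. Its levels were 2.99, 2.44, 2.61 and 2.51 TPM in the polyclonal WT libraries and 33.58, 33.22, 34.1 and 36.26 TPM in WT5. Every WT5 library was above every polyclonal WT library, by 13.0-fold on average (z-score difference 1.12, SE 0.0211, adjusted p = 1.01e-08). Mmp28, epilysin, was called with 0.055 ± 0.0507 TPM against 0.708 ± 0.172 TPM in WT5 (z-score difference 1.22, adjusted p = 3.74e-04). Its polyclonal WT libraries read 0.04, 0.03, 0.13 and 0.02 TPM, most of them near the last decimal kept. Mmp11, which is secreted in active form, went from 21.2 ± 2.47 to 40.8 ± 1.11 TPM, a 1.93-fold difference under the log2 threshold (adjusted p = 7.39e-05). The summed level of the 23 MMP genes went from 25.6 ± 2.33 TPM in polyclonal WT to 78.2 ± 2.45 TPM in WT5. Mmp15 made up 10.4% of it in polyclonal WT and 43.8% in WT5.

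Adam12 and Adamts16 carried the largest z-score differences but at low levels. Adam12, an ADAM with an active protease domain that is best known from muscle and placenta, read 0.02, 0.02, 0.01 and 0.03 TPM in the polyclonal WT libraries and 1.07, 0.8, 1.19 and 1.48 TPM in WT5 (z-score difference 1.81, adjusted p = 2.78e-06). Adamts16 read 0.01, 0.02, 0.01 and 0.01 TPM and then 0.87, 0.87, 0.95 and 0.82 TPM (z-score difference 1.91, adjusted p = 5.96e-07). For both genes the polyclonal WT values lie within 3 steps of the last decimal kept in the tables, so no fold change is given. With a pseudocount of 0.1 TPM the z-score differences of Adam12, Adamts16, Mmp15 and Mmp28 were 0.96, 0.90, 0.96 and 0.72, below the threshold, and Timp3 (1.04) was then the called member among 23738 genes, of which 4.57% were called. The genes scaled together also grew in number from 13723, and the log2 difference of Mmp15 was 3.70 without and 3.65 with the pseudocount, that of Timp3 4.12 and 3.84.

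The abundant ADAMTS proteoglycanases were higher in WT5 by less than the z-score threshold. Adamts1 read 58.2, 59.13, 64.28 and 65.5 TPM in the polyclonal WT libraries and 428.72, 450.78, 454.19 and 402.83 TPM in WT5, a 7.03-fold difference (z-score difference 0.85, SE 0.0194, adjusted p = 2.56e-08). Adamts5, aggrecanase-2, read 8.14, 7.16, 8.65 and 9.42 TPM and then 33.44, 34.16, 34.9 and 31.52 TPM, a 4.03-fold difference (z-score difference 0.58, adjusted p = 6.05e-07). Both passed the log2 threshold and neither gene's groups overlapped. The pair sits side by side on the minus strand of chromosome 16, Adamts1 at chr16:85793827-85803113 and Adamts5 at chr16:85856173-85901828. Adamts7, which cuts cartilage oligomeric matrix protein, lay just outside the z-score threshold at 0.97 (0.273 ± 0.0846 and 2.57 ± 0.434 TPM), and Mmp15 at 1.12 just inside it. Adamts10, a fibrillin-binding member, was the 1 member lower by the log2 rule, at 4.58, 4.73, 4.41 and 4.44 TPM in the polyclonal WT libraries and 2.37, 1.22, 2.06 and 1.62 TPM in WT5 (log2 difference -1.36, adjusted p = 1.93e-04).

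The ADAM sheddases and Timp2 differed little between the lines. Adam10, which releases Notch and E-cadherin ectodomains, averaged 44.1 ± 2.51 TPM in the polyclonal WT libraries and 48.1 ± 1.50 TPM in WT5, a 1.09-fold difference (adjusted p = 0.116). That p is of the z-score difference, which was -0.026 for Adam10 and so opposite in sign to its difference in TPM. Adam9 averaged 39.0 ± 3.88 and 43.2 ± 1.23 TPM (adjusted p = 0.486). Adam17, which releases TNF and EGF receptor ligands, averaged 39.3 ± 2.20 and 35.6 ± 1.09 TPM, and Adam15 112 ± 7.72 and 105 ± 4.03 TPM. Adam17 and Adam15 passed adjusted p (2.40e-04 and 6.05e-04) with differences of 1.10-fold and 1.07-fold. Timp2 averaged 162 ± 3.11 and 175 ± 5.42 TPM (adjusted p = 0.0904), while Timp1, the inducible secreted inhibitor, averaged 10.7 ± 0.840 and 22.8 ± 1.43 TPM, a 2.13-fold difference (adjusted p = 1.13e-05).

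The stretch upstream of the start is shown for Timp3, Mmp15 and Mmp28, which were called in WT5, and for Adamts1, which passed the log2 rule and had the highest mean level of the members. This choice was made after their values were seen. The sequences are from RefSeq on GRCm38.p6 and read 5′ to 3′ on the strand of the gene. They cover bases -250 to -51 relative to the RefSeq start. For Timp3, Mmp15 and Mmp28 that start differs from the start of the gene in the GENCODE M21 annotation. Capitals mark the SP1 box GGGCGG or its complement CCGCCC.
Timp3 (chr10:86300162-86300361, plus strand): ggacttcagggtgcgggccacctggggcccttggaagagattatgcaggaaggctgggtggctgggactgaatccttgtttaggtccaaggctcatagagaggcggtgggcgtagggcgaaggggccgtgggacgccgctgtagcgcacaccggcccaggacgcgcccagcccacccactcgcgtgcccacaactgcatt
Mmp15 (chr8:95352046-95352245, plus strand): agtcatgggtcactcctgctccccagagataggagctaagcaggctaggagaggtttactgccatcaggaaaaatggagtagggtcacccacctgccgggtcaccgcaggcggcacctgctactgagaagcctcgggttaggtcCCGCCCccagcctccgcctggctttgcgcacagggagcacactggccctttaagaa
Mmp28 (chr11:83463091-83463290, minus strand): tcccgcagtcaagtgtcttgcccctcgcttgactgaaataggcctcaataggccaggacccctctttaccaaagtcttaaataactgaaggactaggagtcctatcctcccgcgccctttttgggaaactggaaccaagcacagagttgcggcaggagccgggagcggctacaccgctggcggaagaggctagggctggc
Adamts1 (chr16:85803164-85803363, minus strand): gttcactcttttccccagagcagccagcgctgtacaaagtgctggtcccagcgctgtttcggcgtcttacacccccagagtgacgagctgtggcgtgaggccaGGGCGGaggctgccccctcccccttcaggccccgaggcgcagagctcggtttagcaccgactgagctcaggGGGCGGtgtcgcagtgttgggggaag
Mmp15 held 1 SP1 box and Adamts1 held 2, with none in the windows of Timp3 and Mmp28. Over all 32851 windows of the same length, 24.6% held an SP1 box on either strand. None of the 4 windows held the AP-1 element TGANTCA or the TATA box TATAAA, which 5.57% and 9.14% of all windows held. The windows stop at -51, so the bases next to the RefSeq start, where a TATA box would lie, were not searched. Whether these promoters have a TATA box cannot be read from them. The number of CG dinucleotides was 13 in Timp3, 7 in Mmp15, 9 in Mmp28 and 13 in Adamts1, where the median over all windows was 4. Reference windows matched 49 of the 79 members. The AP-1 element was present in 9 of their 54 windows, in Adam19, Adam20, Adam25, Adam29, Mmp1a, Mmp1b, Mmp7, Mmp10 and Mmp20. Adam19 and Mmp7 also have windows without it. These members were at or near 0 here, but so were members without the element, such as Mmp3 and Mmp12. A link between the element and the level was not tested. A match or its absence in these letters is a description of the sequence.

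The subclones were then set against WT5, which asks how far a line that starts again from 1 cell moves away from its parent. All 5 comparisons use the same 4 WT5 libraries, and WT5 and the subclones come from separate tables matched on the gene identifier, without any normalization across them. A difference between the tables thus cannot be told apart from a change on subcloning. By the z-score rule no member was called in subclones 1 to 4 and Adam12 fell in subclone 5, of 30 members tested. The share of all 13860 genes called was 0.152%, 0.144%, 0.173%, 0.202% and 0.173% in subclones 1 to 5. At an unadjusted limma p under 0.05, 19, 14, 15, 21 and 11 of the 30 members passed in subclones 1 to 5, where 51.0%, 51.5%, 46.2%, 59.0% and 49.1% of all genes passed, and the unequal-variance test gave the same numbers of called members. By the log2 rule 3, 5, 3, 5 and 2 members passed, against 3.13%, 2.71%, 3.84%, 4.89% and 3.48% of all genes. The median log2 difference of the 30 members from WT5 ran from -0.32 to -0.11, and that of all genes from -0.10 to -0.04.

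Adam12 fell below WT5 in all 5 subclones by the log2 rule. Its WT5 libraries lay between 0.8 and 1.48 TPM. The 20 subclone libraries lay between 0.06 and 0.59 TPM and did not overlap with them. Subclones 1, 2, 3 and 4 averaged 0.280 ± 0.0316, 0.368 ± 0.0435, 0.353 ± 0.113 and 0.435 ± 0.114 TPM, and subclone 5 averaged 0.105 ± 0.0387 TPM. In subclone 5 the difference was 11.2-fold (z-score difference -1.17, SE 0.0835, adjusted p = 1.16e-04), and with a pseudocount of 0.1 or 1 TPM it was -0.67 or -0.40, which is not a call. Adamts16, a member studied in blood pressure and kidney, fell by the log2 rule in subclones 1, 2, 4 and 5, from 0.878 ± 0.0538 TPM in WT5 to means of 0.208 to 0.315 TPM, and stood at 0.618 ± 0.149 TPM in subclone 3. Mmp28 fell in subclones 1, 3 and 4, and Adamts4 in subclone 3. Adam4, Adam33 and Adamts12 passed as higher in some subclones at levels near the rounding of the tables. Adam12, Adamts16 and Mmp28 are thus members that were higher in WT5 than in polyclonal WT and lower in several subclones than in WT5, and both sets of differences share the WT5 libraries.

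Timp3 in subclone 1 was the widest difference among these genes. The subclone 1 libraries read 0.04, 0.01, 0 and 0.03 TPM. The subclone 2 libraries read 5.85, 4.55, 5.29 and 5.23 TPM and the subclone 3 libraries 4.39, 3.21, 3.98 and 4.44 TPM. Subclone 4 read 5.27, 6.66, 6.47 and 6.17 TPM and subclone 5 read 6.73, 8.64, 8.49 and 9.32 TPM. Subclone 1 was thus at the rounding limit of the table in every library, below polyclonal WT, while the libraries of the other 4 subclones lay between 3.21 and 9.32 TPM. The value of 0 kept Timp3 out of the fit without a pseudocount. With 0.1 TPM added, subclone 1 lay below WT5 by a z-score difference of 1.54 (log2 difference -5.98, adjusted p = 3.66e-07), a call. Subclones 2 to 5 were not called in that fit, in which 0.0714%, 0.0809%, 0.0751%, 0.0845% and 0.110% of all genes were called for subclones 1 to 5.

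**Figure D3:**
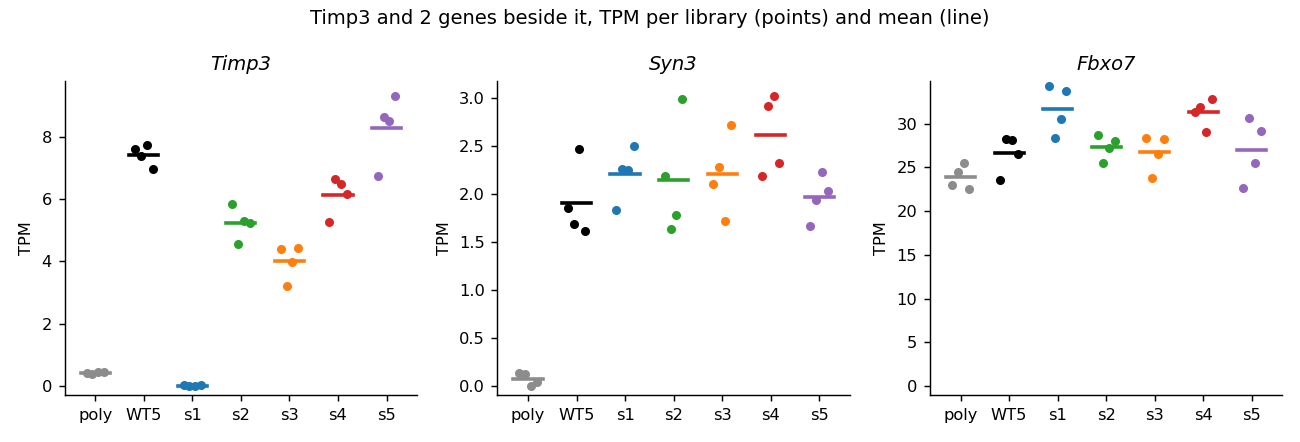
TPM per library (points) and group mean (line) of Timp3, of Syn3, the gene on the opposite strand that contains it, and of the neighbouring Fbxo7, in polyclonal WT (poly), WT5 and subclones 1 to 5 (s1 to s5). Timp3 was between 0 and 0.04 TPM in subclone 1, where Syn3 averaged 2.21 TPM and Fbxo7 31.7 TPM.

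The genes around Timp3 did not share its level in subclone 1. Syn3 averaged 2.21 ± 0.274 TPM in subclone 1, inside the 1.97 to 2.62 TPM of the means of the other subclones. Fbxo7, which encodes an F-box protein and is the next gene beyond Syn3, averaged 31.7 ± 2.78 TPM in subclone 1 and 26.7 to 31.3 TPM in the others. On the other side Hsp90b1, an endoplasmic reticulum chaperone, averaged 461 TPM in subclone 1 and 413 to 581 TPM in the others. Since these are bulk samples, fewer cells with the transcript and less transcript per cell cannot be told apart in any of these values.

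The comparison among the 20 subclone libraries stays within 1 table. It used log2(TPM + 0.1), on which differences of low genes are understated, and genes with a mean of at least 0.1 TPM. Timp3, Adam12, Adamts4, Adamts16, Mmp19 and Adamts10 changed among the subclones (limma F-test, adjusted p under 0.01 and a range of the 5 means above 1 on the log2 scale). These were 6 of the 31 members tested, and 5.19% of 14999 genes were called. A further 5, Mmp15, Adam17, Mmp17, Timp1 and Adam4, passed the adjusted p with a range under 1, and 17.1% of all genes passed by p alone.

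**Figure D4:**
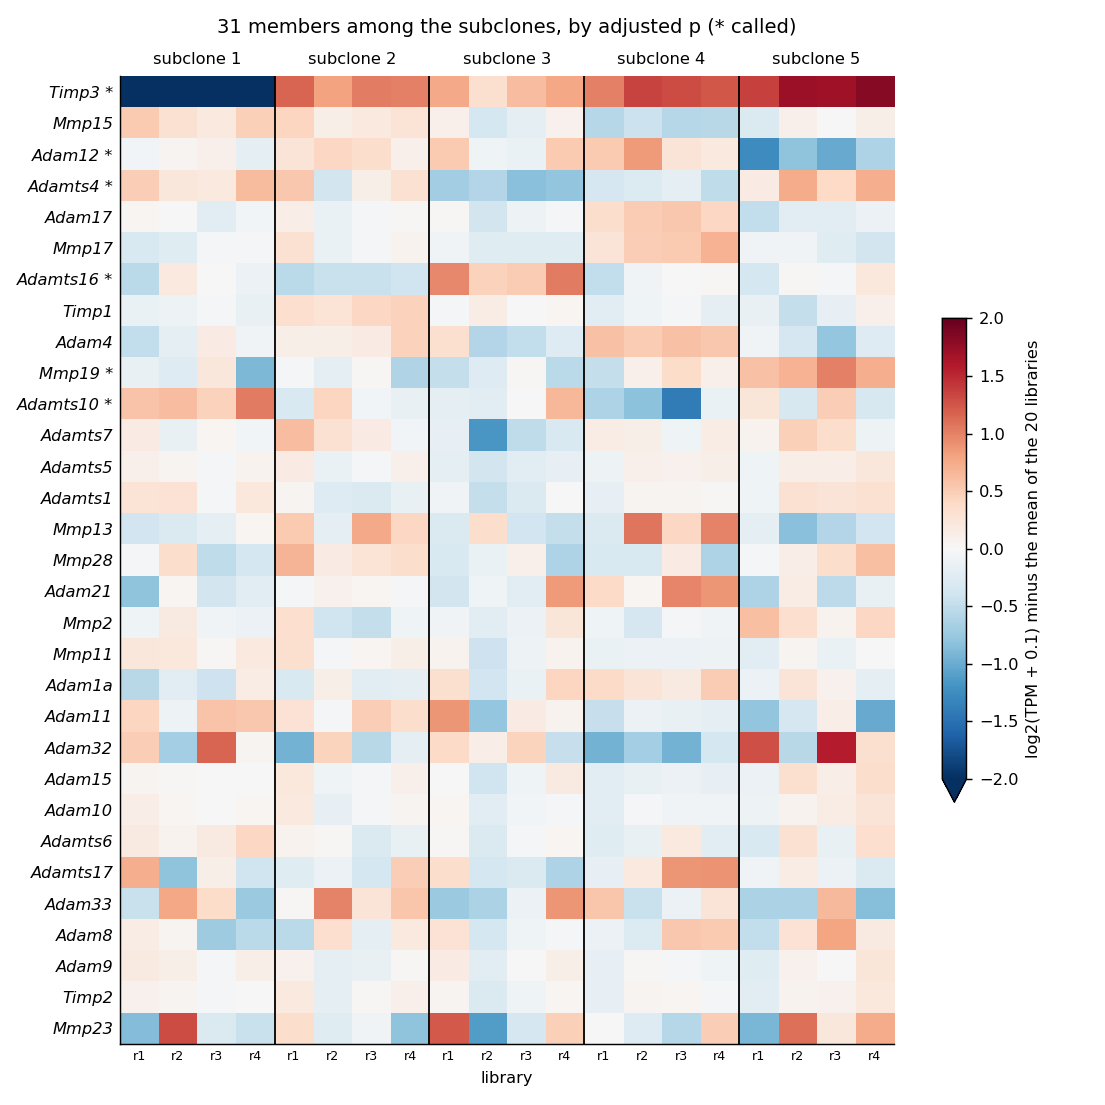
Log2(TPM + 0.1) in each of the 20 subclone libraries minus the mean of the 20, for the 31 members tested, ordered by adjusted p with called members starred. The colour scale runs from -2 to 2, and the 4 subclone 1 values of Timp3 fall below it. Most rows of abundant members are pale, with ranges of 0.11 for Timp2 and 0.15 for Adam9.

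Timp3 had the widest range, 6.13 on the log2(TPM + 0.1) scale (adjusted p = 2.59e-15). Subclone 1 lay below the mean of the other 4 by 5.60 (log2 difference -5.60, SE 0.103, adjusted p = 1.50e-16), a call. Timp3 was also called above the mean of the other 4, which includes subclone 1, in subclones 2, 4 and 5. Subclone 3 lay above that mean by 0.77, under the size threshold (limma adjusted p = 8.21e-05). The shares of all genes called in these contrasts were 0.880%, 0.940%, 0.913%, 1.64% and 1.36% for subclones 1 to 5. Among subclones 2 to 5 alone, a fit added after the data were seen, Timp3 was also called (range 1.03, adjusted p = 1.77e-04), as were 4.43% of genes. The order there was subclone 5 (8.30 ± 1.10 TPM), subclone 4 (6.14 ± 0.616), subclone 2 (5.23 ± 0.532) and subclone 3 (4.01 ± 0.569). Neighbours in this order did not pass an adjusted p of 0.01 (0.0260, 0.283 and 0.148), and subclones 5 and 3 did (3.64e-05).

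Adam12 was lowest in subclone 5, whose libraries read 0.06, 0.12, 0.09 and 0.15 TPM, all below the lowest library of any other subclone, 0.24 TPM. Subclone 5 lay below the mean of the others by 1.15 (log2 difference -1.15, SE 0.139, adjusted p = 1.33e-05). Adamts16 was highest in subclone 3, at 0.72, 0.48, 0.5 and 0.77 TPM, and the other subclones lay between 0.19 and 0.39 TPM. This difference was 0.93 on the log2 scale (adjusted p = 1.72e-04), under the size threshold. Adamts4, aggrecanase-1, was lowest in subclone 3 at 0.24, 0.27, 0.21 and 0.22 TPM and highest in subclone 5 at 0.52, 0.83, 0.63 and 0.82 TPM. Subclone 3 did not overlap with any other subclone for Adamts4 (0.29 TPM was the lowest value elsewhere).

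Mmp19, an MMP that cuts basement membrane proteins, was highest in subclone 5, whose libraries read 0.4, 0.44, 0.57 and 0.45 TPM against 0.08 to 0.33 TPM in the other subclones (range 1.06, adjusted p = 5.45e-03). Adamts10 averaged 3.30 ± 0.640 TPM in subclone 1 and 1.23 ± 0.469 TPM in subclone 4, with 2.03 to 2.18 TPM in the rest (range 1.41, adjusted p = 9.45e-03). For Adamts4, Mmp19 and Adamts10 no subclone was called against the mean of the other 4. Their largest such log2 differences were -0.91 (subclone 3), 0.94 (subclone 5) and -0.93 (subclone 4), under the size threshold. The F-test call of Adamts10 was lost on leaving out any 1 of 16 of the 20 libraries. That of Mmp19 was lost without subclone 3 replicate 1 or without any 1 of the subclone 5 libraries. The calls of the other 4 members held in all 20 cases, and with a pseudocount of 1 TPM only Timp3 of the 6 was called.

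**Figure D5:**
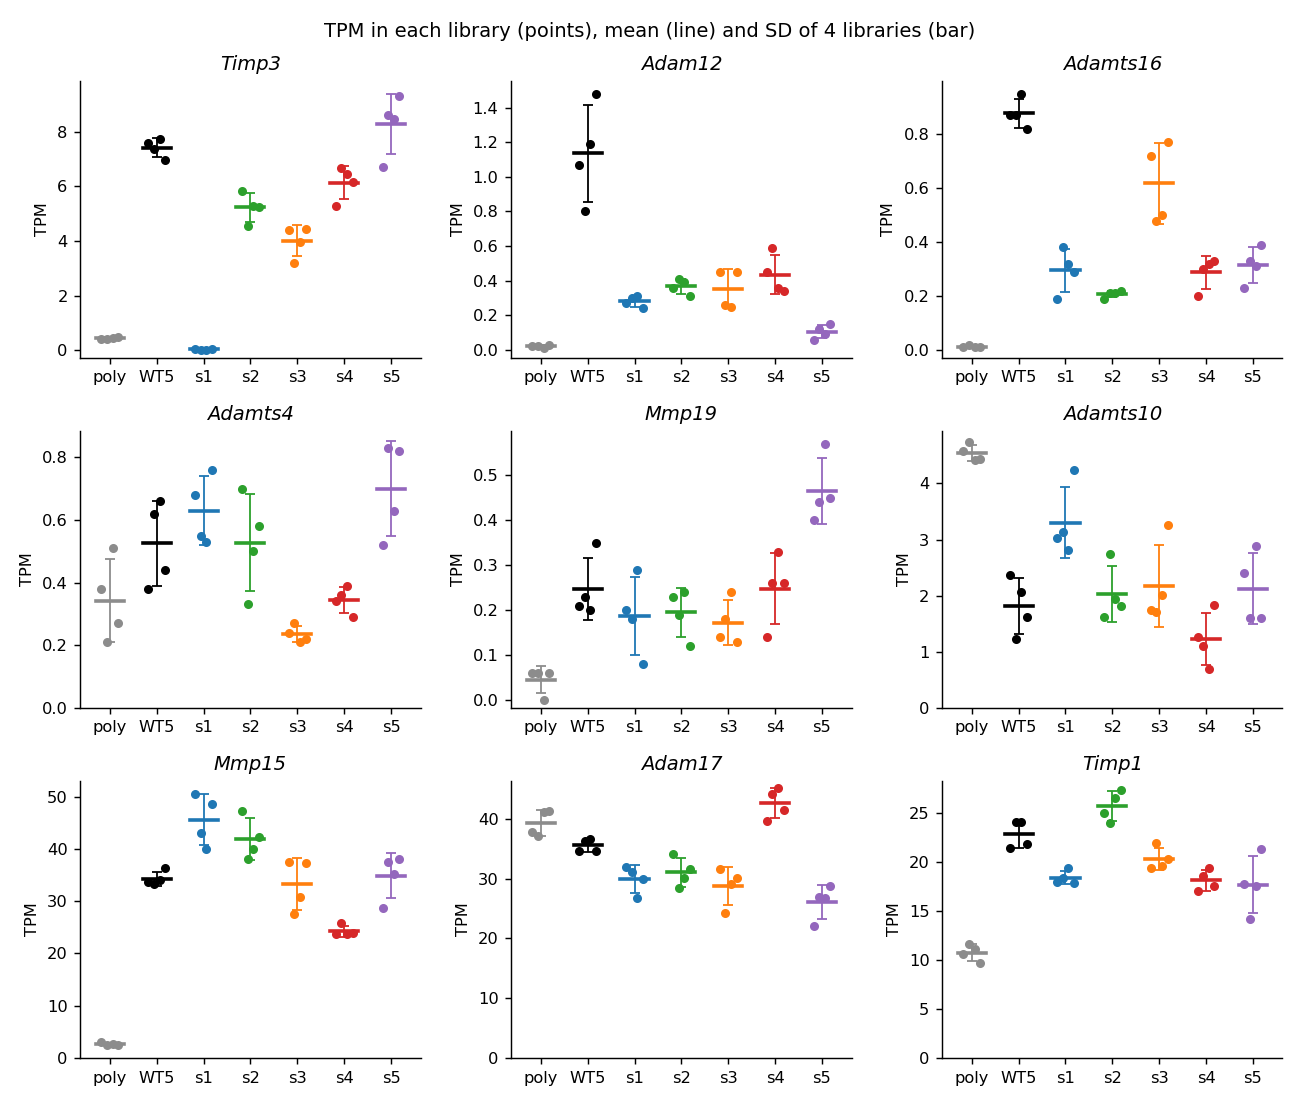
TPM in each library (points), mean (line) and SD of 4 libraries (bar) for the 6 members called among the subclones and for Mmp15, Adam17 and Timp1, in polyclonal WT (poly), WT5 and subclones 1 to 5 (s1 to s5). Axes are linear. Timp3 is near 0 in subclone 1, Adam12 is highest in WT5, and Adam17 is highest among the subclones in subclone 4 (42.6 TPM).

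Some abundant members differed by less than the size threshold but with little overlap. Mmp15 read 23.64, 25.85, 23.62 and 23.89 TPM in subclone 4 and 50.52, 43.1, 39.95 and 48.63 TPM in subclone 1, and the libraries of the other 3 subclones lay between 27.56 and 47.32 TPM. Subclone 4 was thus below all other subclone libraries (log2 difference -0.66 from the mean of the other 4, SE 0.0883, adjusted p = 2.65e-05). Adam17 was highest there, at 39.63, 44.14, 45.11 and 41.45 TPM against 22.08 to 34.05 TPM elsewhere (0.56, SE 0.0738, adjusted p = 2.23e-05). Timp1 was highest in subclone 2, at 24.97, 24.01, 26.5 and 27.35 TPM against 14.14 to 21.94 TPM in the others (0.47, SE 0.0720, adjusted p = 3.83e-04). Timp2, Adam9 and Adam10 did not pass (adjusted p = 0.859, 0.719 and 0.302), and their ranges on the log2 scale were 0.11, 0.15 and 0.20.

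In every subclone a single library was the lowest for most of the abundant members. Of the 10 members that averaged at least 10 TPM over the subclone libraries, 9 were lowest in the same library of the 4 in each subclone (subclone 1 replicate 3, subclone 2 replicate 2, subclone 3 replicate 2, subclone 4 replicate 1 and subclone 5 replicate 1). These libraries were also lowest for 48.7% to 72.8% of all 8861 genes with that mean. These are ranks, and the size of the shift differed. For Timp2, subclone 1 replicate 3 read 138 TPM against 143 to 151 TPM in its other libraries. In subclone 5, replicate 1 read 122 TPM for Timp2 against 149 to 165 TPM. The part of the lowest libraries in the results was not tested beyond leaving them out. Without 3 of them (subclone 2 replicate 2, subclone 3 replicate 2 and subclone 5 replicate 1) Timp3 (range 6.23), Adam12 (1.27), Adamts4 (1.40) and Adamts16 were called, while Mmp19 and Adamts10 were not.

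Genes that work with the members were taken from 6 lists with 104 genes in all, and of the 66 tested in WT5 against polyclonal WT 3 rose and 2 fell by the z-score rule, where 5.43% of all genes tested were called. Among activators of pro-enzymes 1 of 8 tested rose, Plat, tissue plasminogen activator (6.65 ± 0.285 and 77.8 ± 1.88 TPM). Plau, urokinase, and its receptor Plaur passed the log2 rule, Plau with 25.4 ± 1.97 and 72.1 ± 3.94 TPM and Plaur with 11.4 ± 1.18 and 68.0 ± 1.02 TPM. Among other extracellular and membrane proteases 1 of 11 rose, the dipeptidyl peptidase Dpp4 (0.210 ± 0.0383 and 6.89 ± 0.431 TPM). Of 21 membrane proteins shed by ADAM10 or ADAM17, the Notch ligand Jag1 rose (1.92 ± 0.380 and 73.0 ± 3.62 TPM) and the EGF receptor ligand Btc fell (2.695 ± 0.359 and 0.273 ± 0.0472 TPM), and 11 were higher and 2 lower by the log2 rule. Tspan15, a tetraspanin that guides ADAM10, fell from 10.6 ± 0.917 to 1.45 ± 0.153 TPM, as 1 of 8 iRhom and TspanC8 genes tested. None of the 11 inhibitors other than TIMPs and of the 8 matrix substrates was called by the z-score rule, and 6 and 5 of them were higher by the log2 rule, with 0 and 1 lower. By the log2 rule 16.4% of all genes tested were higher and 8.85% lower.

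Among the subclones 13 of the 73 entries of these lists that were tested were called, with Cd44 in 2 lists, where 5.19% of all genes were called. Tspan15 was lowest in subclone 2 (1.10 ± 0.0614 TPM) and highest in subclone 4 (5.70 ± 0.373 TPM), a range of 2.27 (adjusted p = 2.12e-12). Pcsk6, a convertase that activates pro-proteins, ran from 0.355 ± 0.0705 TPM in subclone 2 to 2.20 ± 0.716 TPM in subclone 1. Ctsz, a lysosomal cathepsin, was at 35.1 ± 1.62 TPM in subclone 1 and 92.9 to 122 TPM in the other subclones, and Htra1, a secreted serine protease, was at 8.49 ± 0.387 TPM in subclone 5 and 18.1 to 23.4 TPM in the others. Among the other called genes were Cd44, Papln, Pappa, Hpse, Btc, Lama3 and Eln, with ranges of 1.05 to 1.95 on the log2(TPM + 0.1) scale. Eln, elastin, was also the 1 list gene called against WT5, lower in subclone 2 (0.0700 ± 0.0356 TPM against 0.703 ± 0.258 TPM).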

How the data were processed

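TPM tables deposited by the authors were used, 1 with polyclonal WT and WT5 and 1 with the 5 subclones, each with 45706 Ensembl genes. Per the study's methods, the authors removed reads with adapters or many low-quality bases, aligned with STAR 2.7.3a to GRCm38 and estimated TPM with RSEM 1.3.1 on Ensembl release 81 (base calling with CASAVA 1.8, per the labels). Strandedness and the read length of the subclone libraries are not given in the sources used here. TPM holds no counts, so all tests used limma 3.58.1 (R 4.3.3) on log2 TPM, two-sided with Benjamini-Hochberg adjustment over all genes. Comparisons with WT5 or polyclonal WT used log2 TPM without a pseudocount, z-scored within each library (the study also z-scored log2 TPM), for genes above 0 in all libraries compared, and called genes at adjusted p under 0.01 and a z-score difference above 1. The subclones were compared by a moderated F-test on log2(TPM + 0.1) over genes with a mean of at least 0.1 TPM, called at adjusted p under 0.01 and a range above 1, and each subclone was set against the mean of the other 4 by contrasts of that fit. The scripts were tested on simulated data.

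All 28 libraries had a group in the labels, with 4 a group, and were used. Symbols matched 45143 of the gene identifiers. Coordinates and exon overlaps are from GENCODE M21 (GRCm38). Shared stretches of 50 bases between transcripts were counted, and 26 members had 1 or more and 20 had exons overlapping another gene. Of 29 housekeeping genes 0 had a value of 0 in any library. Members and gene lists were chosen with earlier results of these data known. Members named one by one were the 4 TIMP genes, those called in a main comparison or among the subclones, and the 3 most abundant MMP, ADAM and ADAMTS genes. In each list of partner genes up to 4 called genes were named, and other genes are named where a count or a value beside them is discussed, having been chosen after their values were seen. Some genes of these lists are not reported here. Alternatives were an unequal-variance test, pseudocounts of 0.01, 0.1 and 1 TPM, other filters and thresholds, other scalings, the replicate number as a block, and leaving out libraries. Versions: Python 3.11.15, pandas 2.3.3, matplotlib 3.10.9.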

Additional observations from a re-analysis of the deposited data

Results flagged for a closer look

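In groups of 4 libraries of the members named, 8 of 114 groups held 1 library whose gap to the nearest, as a share of the group's range, passed Dixon's critical value, where chance gives about 1 in 20. These were Adamts1 in subclone 4 replicate 1 (385 TPM) and in subclone 5 replicate 1 (407 TPM), Adamts5 in subclone 4 replicate 1 (24.1 TPM) and Mmp11 in subclone 1 replicate 3 (31.7 TPM). Those libraries were the lowest for most of the abundant members in their subclones. The others were Mmp15 in subclone 4 replicate 2 (25.9 TPM, high), Mmp2 in subclone 1 replicate 2 (0.66 TPM, high) and in subclone 4 replicate 2 (0.43 TPM, low), and Timp2 in polyclonal WT replicate 1 (157 TPM, low).

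A further 6 members differed between the subclones by the F-test among them, with ranges of the 5 means on the log2(TPM + 0.1) scale of 6.13 for Timp3, 1.41 for Adamts10, 1.38 for Adam12, 1.24 for Adamts4, 1.20 for Adamts16 and 1.06 for Mmp19. Subclone 1 set the range of Timp3 and subclone 5 that of Adam12.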

How the results depend on the processing

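No called difference changed direction in any alternative run. In WT5 against polyclonal WT, 5 members were called; the count was 1 with a pseudocount of 0.1 TPM and 3 with 1 TPM, 12 by a log2 difference above 1, 11 by that difference less the median of all genes (chosen after seeing the data) and 15 with no size threshold, and 5 to 6 on leaving out 1 library. For subclones 1 to 4 against WT5 the count of 0 became 3, 5, 3 and 5 by the log2 threshold and 9, 8, 8 and 15 with no size threshold, and was 0 to 0 on leaving out 1 library. In subclone 1 it was 1 with a pseudocount of 0.1 TPM. In subclone 5 the count of 1 was 0 with a pseudocount of 0.1 or 1 TPM or with a mean of at least 1 TPM, 2 by the log2 threshold and 6 with no size threshold, and 1 to 1 on leaving out 1 library. The share of all genes passing with no size threshold is not given for these comparisons, so those counts are no result about the members. At an unadjusted limma p under 0.05, 17 of the 27 members and 77.1% of all genes passed in WT5 against polyclonal WT. Among the subclones the 6 calls were 1 with a pseudocount of 1 TPM, 2 with a mean of at least 1 TPM, 11 with no size threshold and 4 to 6 on leaving out 1 library. The 5 calls of a subclone against the others, over the members named, were 2 with a pseudocount of 1 TPM, 9 with 0.01 TPM, 16 with no size threshold and 5 to 6 on leaving out 1 library. The 5 were Timp3 in subclones 1, 2, 4 and 5 and Adam12 in subclone 5, and some members were named because the same fit called them. Shares of all genes are not given beside these counts or those among the subclones, so neither is a result about the members. Of the 66 partner genes tested in WT5 against polyclonal WT 5 were called, and 34 by the log2 threshold, which 25.3% of all genes passed. A pseudocount or another filter also changed which genes were tested and scaled together. The causes were not tested. For single members 379 alternative values stayed on the same side of the threshold and 45 fell below it.

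Same-numbered libraries of WT5 and the groups compared with it did not vary together (r from -0.048 to 0.067 over 24 pairs, with 7 pairing best with their own number). No pairing by number was thus seen in these comparisons. Subclones were not checked against each other in this way, so pairing among them is not known. With the replicate block the count in WT5 against polyclonal WT was 5, and the call of Adamts10 among the subclones was lost (5 calls). The block changed no other call reported. TPM without counts sets no limit of detection, and values under 0.1 TPM rest on few decimals.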
